A study of Mus musculus with 11 samples.

Results

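Inflamed venule endothelial cells of the mouse brain were taken from single-cell RNA libraries by a gate on unique molecular identifiers (UMIs), each of which stands for 1 captured RNA molecule. A barcode, which labels the RNA of 1 droplet, was a member when it had no fewer than 500 genes, no more than 10% mitochondrial UMIs, a sum of at least 4 UMIs over Ackr1, Sele, Selp, Lcn2 and Lrg1 with at least 2 of these 5 genes detected, at least 2 UMIs over the endothelial genes Cldn5, Flt1, Itm2a and Pecam1, at most 2 UMIs over P2ry12, Cx3cr1, Vtn and Myh11, and under 5% hemoglobin UMIs. Of 66658 deposited barcodes, 61625 passed the limits on genes and mitochondrial UMIs, 38801 of these passed the endothelial conditions, and 1038 were members, which is 2.68% of the endothelial barcodes. The 5 gate genes therefore chose the cells and are no finding.

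The libraries came from untreated mice, 1 library per mouse, after brain microvessels had been captured with magnetic beads against CD31 (Pecam1) and dissociated. They were of both sexes and 6 or 9 months old: 6 R182C-TgN3 mice, 3 at 6 months and 3 at 9 months, and 5 WT-TgN3 mice, 3 at 6 months and 2 at 9 months. Both genotypes carry a human NOTCH3 transgene in addition to mouse Notch3, with the CADASIL variant R182C in the former and the wild-type sequence in the latter. CADASIL is an inherited small vessel disease of the brain. The labels name the lines Tg350 and Tg100, so that the variant and any other difference between the lines cannot be told apart. The mice were prepared in 4 batches, each with mice of 1 age only: batch 1 held 4 mice of 9 months, batch 2 held R182C-TgN3 3 alone, also 9 months old, and batches 3 and 4 held 4 and 2 mice of 6 months. Age and batch therefore cannot be told apart. Each library held 3416 to 10430 barcodes and 17550806 to 64215050 UMIs.

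Leukocytes leave the blood mainly through postcapillary venules, whose endothelium can be switched by cytokines such as IL-1, TNF and IL-6 family members to a state that captures passing cells. E-selectin (Sele) and P-selectin (Selp) slow leukocytes on the vessel wall, ICAM-1 and VCAM-1 hold them through integrins, and the chemokine receptor ACKR1, which does not signal through G proteins, carries chemokines across venular endothelium. Lipocalin 2 (Lcn2) binds iron-loaded bacterial siderophores, LRG1 modifies TGF-beta signaling in vessels, and both are secreted proteins whose genes respond to STAT3 and NF-kB signaling in many tissues. Endothelial cells of the healthy brain carry little of the selectins, and keep instead a barrier of tight junctions and transporters.

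The gate genes lie on 3 chromosomes of GRCm38 (mm10): Ackr1 at chr1:173331886-173333750 on the minus strand, Sele at chr1:164048234-164057677 and Selp at chr1:164115264-164150026 on the plus strand, Lcn2 at chr2:32384633-32388252 and Lrg1 at chr17:56119678-56122001 on the minus strand. All are protein-coding. Promoters of 8 genes the results turn on (the 5 gate genes, Icam1, Socs3 and Ptgs2) were searched on both strands from 250 bases before to 50 after the RefSeq gene start for the STAT motif TTCNNNGAA, which reads the same on both strands. Promoters of Sele, Icam1 and Socs3 held 1 match each, and those of Ackr1, Selp, Lcn2, Lrg1 and Ptgs2 held none. The STAT motif was present in 2726 of 32851 mouse promoters of this length (8.3%). An NF-kB motif, whose letters are not reported here, was searched in the same 8 promoters and had 0 matches in each. It was present in 2779 of the 32851 promoters (8.46%). Other forms of an NF-kB site were not searched, so these 0 matches do not show that the promoters lack one. The promoters with a match are shown because Socs3 and Icam1 stand out in the profile and Sele is a gate gene. They are given for the 250 bases before the start, 5′ to 3′ on the strand of the gene, from RefSeq on GRCm38.p6, with the match in capitals. The first base of the match lies 140 bases before the start in Sele (chr1:164047984-164048233, plus strand), 42 in Icam1 (chr9:21015690-21015939, plus strand) and 154 in Socs3 (chr11:117969367-117969616, minus strand). A match describes the letters and does not show binding.
Sele: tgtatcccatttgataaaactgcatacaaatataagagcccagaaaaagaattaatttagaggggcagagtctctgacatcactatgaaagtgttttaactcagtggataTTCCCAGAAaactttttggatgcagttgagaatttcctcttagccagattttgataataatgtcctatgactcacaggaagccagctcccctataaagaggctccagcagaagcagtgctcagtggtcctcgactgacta
Icam1: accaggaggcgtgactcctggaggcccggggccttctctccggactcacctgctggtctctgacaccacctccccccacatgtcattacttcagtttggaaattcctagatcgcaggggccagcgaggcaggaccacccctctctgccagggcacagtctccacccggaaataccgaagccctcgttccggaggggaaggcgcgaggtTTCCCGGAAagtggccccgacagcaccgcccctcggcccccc
Socs3: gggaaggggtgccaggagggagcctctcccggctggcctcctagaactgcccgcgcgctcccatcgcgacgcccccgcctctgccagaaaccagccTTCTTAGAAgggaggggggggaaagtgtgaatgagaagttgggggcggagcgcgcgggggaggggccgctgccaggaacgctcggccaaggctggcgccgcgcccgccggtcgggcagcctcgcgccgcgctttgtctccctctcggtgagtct

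Before any profile, the barcodes of the members were compared between libraries, since a droplet barcode should be found in different mice only by chance. Of 65086 distinct barcode sequences in the series, 966 were present in more than 1 library, and the largest number that a pair of libraries had in common was 350, for R182C-TgN3 4 and 5. Among the 1038 members, 474 (45.7%) carried such a shared sequence, and 466 of them came from batches 3 and 4, where they made up 65.1% of the members. They represented 185 distinct sequences, of which 131 passed the gate in more than 1 mouse and some in as many as 6 mice. Shared members had a median of 947 UMIs and 681 genes, and 452 of the 474 had under 3000 UMIs. The 564 members whose sequence was in 1 library only had a median of 17579 UMIs and 4807.5 genes, and 8 of them had under 3000 UMIs.

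**Figure D1:**
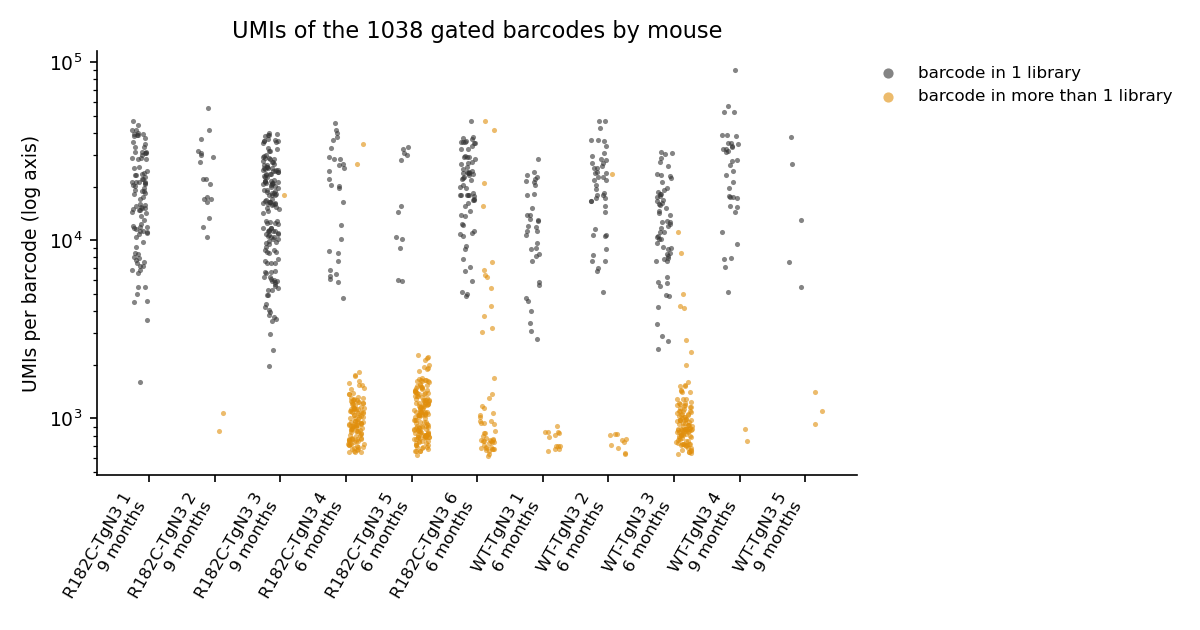
UMIs per member barcode (log axis) in each of the 11 mice, with members whose barcode sequence is in more than 1 library drawn apart from members of 1 library only. The shared members have a median of 947 UMIs and crowd the lower end in the mice of batches 3 and 4, and the 1-library members have a median of 17579.

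In female mice of batches 3 and 4, the shared barcodes also went against the sex label. Xist was detected in 412 of 436 1-library members from female mice and in 0 of 128 from male mice, and Y-linked genes in 1 and 122 of these. Among shared members from female mice of batches 3 and 4, however, Xist was detected in 8 of 335 and Y-linked genes in 82. In those from male mice of these batches, Xist was detected in 0 of 131 and Y-linked genes in 27. Shared members had far fewer UMIs, so lower detection than in 1-library members is not read on its own. Pooled over the 6 mice of these batches, Lcn2 was at 7497 counts per 1000000 UMIs (CPM) in shared members and 261 in 1-library members, Ackr1 at 1872 and 176, Sele at 331 and 67.7, and Lrg1 at 1176 and 278. Genes outside the gate differed too: Serpina3n was at 367 and 1.10 CPM, Cd14 at 654 and 31.6, and Hbb-bs, a hemoglobin gene, at 608 and 5.27, with Vwf (2090 and 1880) and Flt1 (3669 and 3654) at like levels. What produced the shared barcodes was not tested. Shares, tests and counts over all genes are therefore given with all members and with 1-library members, and list counts and levels of single genes come from 1-library members in the 8 mice with at least 20 of them (R182C-TgN3 1, 3, 4 and 6 and WT-TgN3 1 to 4), unless stated otherwise.

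The label of the cells was checked against markers that the gate did not use. A barcode was called vein-marked when at least 2 of 4 venous genes, Slc38a5, Nr2f2 and Vwf among them, were detected with a sum of at least 3 UMIs. The artery and capillary marks were set in the same way from 4 genes each, and a barcode can carry more than 1 mark. The vein mark was present on 558 of 564 1-library members (98.9%) and on 35.9% of the other endothelial barcodes, the artery mark on 7.80% and 19.3%, and the capillary mark on 84.2% and 74.5%. Since the members were deep, and a mark is found more easily in a deep barcode, the same was done at 10000 UMIs or more, for 428 members and 5854 other endothelial barcodes. The vein mark was then present on 99.1% and 75.1%, the artery mark on 9.81% and 33.2%, and the capillary mark on 94.2% and 85.5%. The summed level of 8 venous genes, these 4 among them, was 6706 to 7685 CPM in the members and 1928 to 2857 CPM in the other endothelial barcodes, without overlap between any mice, and that of 9 arterial genes was 149 to 293 and 684 to 989 CPM. The 8 capillary genes summed to 1076 to 2062 CPM in the members and 4157 to 6436 CPM in the others, also without overlap. The 8 markers of all endothelial cells summed to 10289 to 12892 CPM in the members and 15202 to 16850 in the others, of which Cldn5, Flt1, Itm2a and Pecam1 were used by the gate.

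Summed markers of neutrophils and of platelets were each higher in the members than in the other endothelial barcodes in 1 of 8 mice. Neutrophils make much Lcn2 and platelets store P-selectin. The 10 neutrophil markers summed to between 0 and 2.25 CPM in the 4 WT-TgN3 mice and had a median of 1.06 CPM over the 8 mice, with a highest value of 657 CPM in R182C-TgN3 4, where 1 barcode had at least 10 UMIs of S100a8 and S100a9. The 8 platelet markers summed to 8.99 to 26.6 CPM, against 13.4 to 31.8 in the other endothelial barcodes, Gp1ba and Gp1bb were at 0, and Itga2b was the highest of them. The 7 microglial markers summed to 188 to 363 CPM against 383 to 721 in the other endothelial barcodes, and 0 of 8203 microglia-marked barcodes passed the conditions on the 5 gate genes, which allows a share of up to 0.0366%. The lists of T cells, B cells, monocytes, perivascular macrophages, fibroblasts, smooth muscle, pericytes, oligodendrocytes and ependymal cells summed to at most 41.4 CPM in any mouse, with pericyte genes highest. Astrocyte genes were at 30.7 to 91.9 CPM (45.8 to 75.3 in the other endothelial barcodes), choroid plexus genes at 111 to 331 (513 to 3233) and erythroid genes at 1.65 to 210 (48.3 to 306), and neuronal genes reached 89.9 CPM in 1 WT-TgN3 mouse. Of the 1-library members, 14 (2.48%) were among the barcodes scored as doublets.

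Free RNA can place a UMI in a droplet whose cell does not express the gene. In microglia-marked barcodes, with median depths of 3761 to 7703 UMIs per mouse, Lcn2 was detected in 0.110%, Lrg1 in 0.0731%, Ackr1 in 0.0488%, Selp in 0.0366% and Sele in none. In endothelial barcodes that were not members, with median depths of 3125 to 7332 UMIs, these shares were 2.83%, 1.94%, 0.764%, 0.254% and 0.262%. The 5 genes were thus detected more often in endothelial than in microglial barcodes of like depth even outside the gate.

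Members differed in which gate genes they carried. Among the 564 1-library members, Lrg1 was detected in 89.4%, Lcn2 in 81.2%, Ackr1 in 67.0%, Selp in 23.2% and Sele in 21.5%. Exactly 2 of the 5 genes were detected in 253 members, 3 in 195, 4 in 79 and all 5 in 37. The most frequent pair was Lcn2 with Lrg1 (71.8%), and Sele was found together with Selp in 9.04%. In 141 members (25.0%) neither Ackr1, Sele nor Selp was detected, so that these entered through Lcn2 and Lrg1 alone. This share was 44.3% in R182C-TgN3 3 and between 8.57% and 35.6% in the other 7 mice. At the edge of the gate, 89 endothelial barcodes of 1 library had a sum of 3 and 80 members had a sum of 4. Vcam1 was at 724 and 693 CPM in these, Vwf at 1313 and 1366, Ptgs2 at 262 and 332, and Fth1 at 3129 and 3317.

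Levels of the gate genes describe what was selected. Ackr1 had a lowest, median and highest value of 89.3, 166 and 299 CPM over the 8 mice, Lrg1 of 174, 248 and 420, and Lcn2 of 109, 143 and 854. Sele ranged from 3.99 to 230 CPM with a median of 43.0, and Selp from 3.99 to 604 with a median of 82.9. WT-TgN3 3 was highest and WT-TgN3 4 lowest for both selectins, so 2 mice of the same genotype held the ends of both ranges. Among the other endothelial barcodes, Ackr1 was at 0.0961 to 1.61 CPM in capillary-marked, 0 to 3.00 in artery-marked and 1.11 to 5.14 in vein-marked barcodes, and these 3 sets overlapped. Lcn2 was at 8.64 to 41.1 CPM in vein-marked barcodes, above its ranges in capillary-marked (0.336 to 5.40) and artery-marked barcodes (0 to 0.960). Lrg1 likewise was at 4.12 to 19.2 CPM in vein-marked barcodes, against 0 to 0.953 and 0.171 to 2.24.

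**Figure D2:**
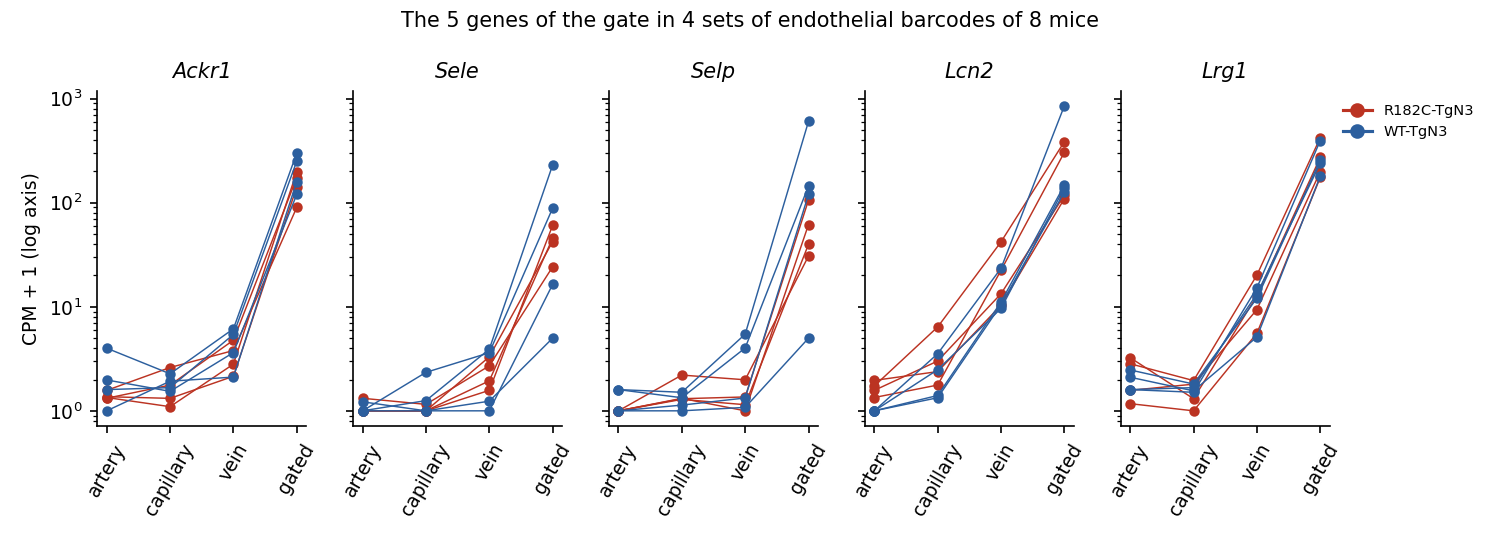
Level of the 5 gate genes (CPM + 1, log axis) in artery-marked, capillary-marked and vein-marked endothelial barcodes outside the gate and in gated members, with 1 line per mouse for 8 mice (1-library barcodes). The step up to the members follows from the gate, and Sele and Selp fan out among the members from 3.99 CPM to 230 and 604 CPM.

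The profile of the members was described within each mouse, as the log2 ratio of summed CPM in members and in the other endothelial barcodes of the same mouse, with 5 CPM added to both. A gene is called higher or lower here when the median ratio over mice was at least 2-fold and its direction was the same in every mouse. No test was made, since the members were chosen by expression in the same cells. Of 7163 genes with a mean of at least 20 CPM in either set, 207 (2.89%) were called higher in 1-library members and 218 (3.04%) lower. With all members in 10 mice, the counts were 207 (2.89%) and 208 (2.9%) of 7162, and 191 and 196 of these genes were called in both. With only barcodes of at least 10000 UMIs on both sides, 130 (1.83%) were higher and 166 (2.33%) lower of 7123, of which 129 and 149 were among those called without that limit. To separate the members from veins as such, they were also compared with vein-marked barcodes outside the gate that carried no artery mark. There, 160 of 7038 genes (2.27%) were higher and 103 (1.46%) lower, or 149 (2.12%) and 91 (1.29%) of 7028 with all members and 115 (1.64%) and 80 (1.14%) of 7021 at 10000 UMIs or more. Median depths of vein-marked barcodes were 4277 to 10600 UMIs per mouse, below that of the members, and the part of depth in the remaining differences was not tested further. The counts in every list below stand beside 2.89% of all genes higher and 3.04% lower than in other endothelial barcodes. Against vein-marked barcodes these shares were 2.27% and 1.46%. A list with few genes called is not read as a result about that list. In the lists below, Jam3, Lfng, Mgp, Plpp3, Hspg2, Ctss and C1qb were called against other endothelial barcodes with 1-library members and not with all members, and so were Mt1, Mt2 and Cd40 against vein-marked barcodes. Jam3, Lfng, Jup, Plpp1, Hspg2, Ctss, C1qa and C1qb were not called against other endothelial barcodes at 10000 UMIs or more.

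Among leukocyte adhesion molecules, Icam1 and Vcam1 stood above the rest. Of 18 listed genes with enough counts, these 2 were called higher and Jam3 lower, and the median ratio of the list was -0.14 on the log2 scale against -0.02 over all genes. Vcam1, a ligand of the integrin VLA-4, had a lowest, median and highest level of 516, 862 and 1109 CPM in the members, against 165, 198 and 271 in other endothelial and 251, 337 and 398 in vein-marked barcodes. The ranges did not overlap, and the median ratios were 1.96 and 1.27 on the log2 scale. Icam1, a ligand of LFA-1, was at 518, 734 and 1469 CPM in the members and at 141, 234 and 301 in other endothelial barcodes. Its median ratio was 1.86 (range 1.24 to 2.47 over 8 mice), and against vein-marked barcodes it was 0.97, just short of 2-fold. Pecam1, used by the gate, was at 520 to 759 CPM in the members and 654 to 913 in the others.

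Of 23 genes of STAT3 signaling and the acute phase response tested, 10 were higher and 0 lower, with a median ratio of 0.96. With all members it was 13 of 25, and at 10000 UMIs or more 7 of 23. Among the receptors, Il6st (gp130, the shared subunit of IL-6 family receptors) was at 363, 503 and 607 CPM (lowest, median and highest) in the members and at 121, 178 and 209 in other endothelial barcodes, a median ratio of 1.54. Osmr, the oncostatin M receptor subunit, and Il4ra were called as well. Among the targets, Socs3, which feeds back on these receptors and whose promoter is shown above, was at 321, 389 and 624 CPM against 67.4, 111 and 162, with a median ratio of 1.88 and of 1.65 against vein-marked barcodes. Socs3 levels of the members and of both other sets did not overlap.

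Stat3 itself was at 356, 442 and 578 CPM against 195, 216 and 302, a median ratio of 0.96, and was not called. Ch25h, which makes the oxysterol 25-hydroxycholesterol, was at 43.9, 106 and 176 CPM against 5.17, 8.83 and 14.6. Its median ratio was 2.91, and 2.32 against vein-marked barcodes. At 10000 UMIs or more these ratios were 2.42 and 2.11. Bcl3, Cebpd, Cish, Serpina3g and C4b completed the list of genes called. At 10000 UMIs or more, Osmr, Bcl3 and Cish were not called. Serpina3g (median 37.1 against 5.28 CPM) belongs to a family of close copies, as does C4b (24.8 against 2.38 CPM), so their reads may be divided among paralogs. Against vein-marked barcodes the metallothioneins Mt1 and Mt2 were called lower with 1-library members and not with all members. Mt1 was at 155, 323 and 543 CPM in the members against 519, 755 and 1024 in vein-marked barcodes, a ratio of -1.17.

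Genes of the NF-kB, IL-1 and TNF response were higher in 6 of 26 and lower in none, with a median ratio of 0.76. With all members the count was 8, at 10000 UMIs or more it was 4 of 25, and against vein-marked barcodes it was 6 of 26, of which only Ptgs2 was called at 10000 UMIs or more. Il1r1, the receptor of IL-1 and also a venous gene, was at 685, 1061 and 1418 CPM in the members, 190, 236 and 254 in other endothelial barcodes and 388, 466 and 588 in vein-marked ones. Its median ratios were 2.15 and 1.19. Ptgs2 (COX-2), which makes prostaglandin precursors, was at 253, 483 and 796 CPM against 39.4, 56.3 and 65.9 and, in vein-marked barcodes, 70.7, 99.1 and 132. The ratio of 3.08 for Ptgs2 was among the highest outside the gate genes, and its levels were separated between sets in all 8 mice. With barcodes of at least 10000 UMIs on both sides the ratio of Ptgs2 was 2.16.

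Irf1, a transcription factor of interferon and TNF responses, was at 259, 590 and 731 CPM against 101, 189 and 242, a ratio of 1.52. Ier3 was at 1125, 1370 and 2000 CPM against 400, 446 and 686, and Nfkbiz, an atypical I-kappa-B protein, at 431, 568 and 842 against 186, 255 and 299. Birc3, an inhibitor of apoptosis, was the sixth gene called. At 10000 UMIs or more, Nfkbiz and Birc3 were not called. Nfkbia, the classic feedback inhibitor, was at 673, 1194 and 1488 CPM against 499, 621 and 759, with a ratio of 0.76 that was not called.

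Chemokines were split. Of 10 with enough counts, Cxcl1, Cxcl2, Cxcl10 and Csf1 were called higher and Cxcl12, Ccl3 and Ccl4 lower. At 10000 UMIs or more, Cxcl1 and Cxcl10 were higher and Cxcl12 lower of 8. Cxcl1, which attracts neutrophils, was at 51.3, 82.4 and 203 CPM in the members against 9.09, 22.5 and 36.7, a ratio of 1.97, and Cxcl10, an interferon-induced attractant of T cells, was at 35.9, 84.2 and 199 against 10.6, 19.6 and 29.2, a ratio of 2.00. Neither overlapped with the other endothelial barcodes. Cxcl12, which keeps leukocytes at the vessel and is most abundant in capillaries, was at 92.3, 126 and 350 CPM against 1094, 1313 and 2449, a ratio of -3.33, and against vein-marked barcodes -2.14. Csf1, the growth factor of microglia and macrophages, was at 95.9, 148 and 221 CPM against 49.2, 58.8 and 63.1.

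**Figure D3:**
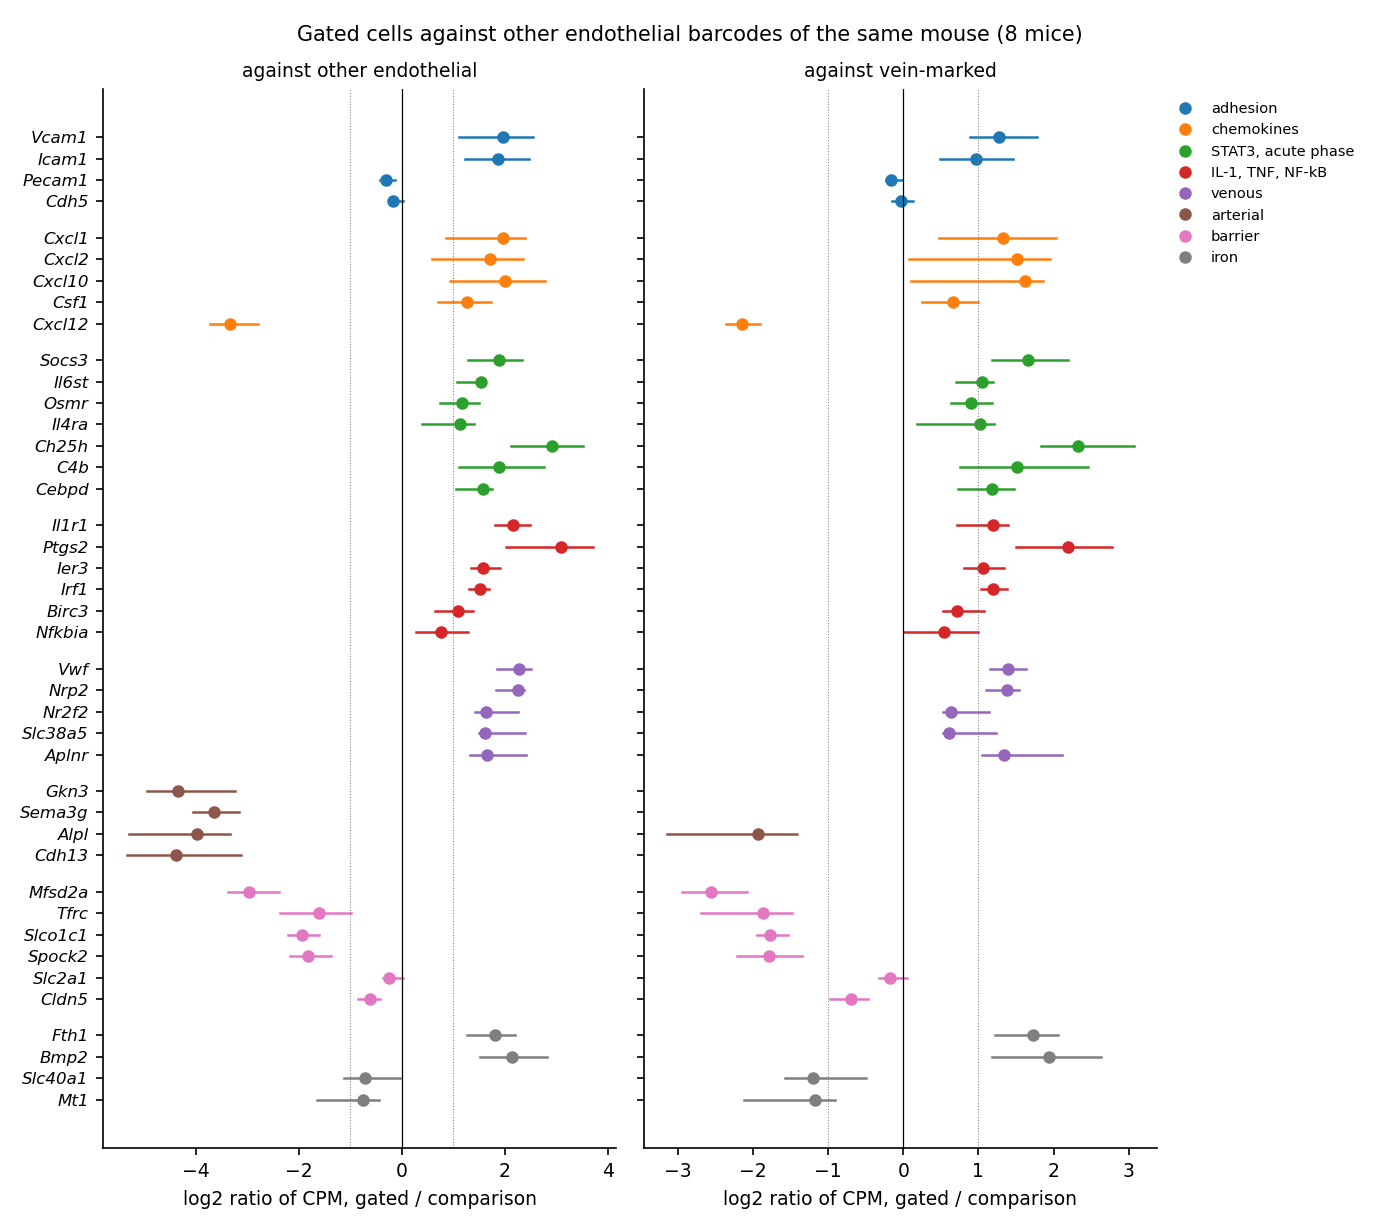
Median log2 ratio (points) and range over 8 mice (bars) of named genes in 8 groups, for 1-library members against other endothelial barcodes and against vein-marked barcodes of the same mouse, with dotted lines at 2-fold in either direction. Ptgs2, Ch25h and Vcam1 lie to the right of the line in both comparisons, and Cxcl12 and Mfsd2a to the left in both.

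Interferon genes were called in both directions against other endothelial barcodes, and antigen presentation genes in neither. Over all genes, 2.89% were called higher there and 3.04% lower. Of 29 interferon genes, Ifitm1 and Iigp1 were higher and Rsad2 lower, and of 21 genes of antigen presentation none was called in either direction, with medians of -0.18 and 0.19. Against vein-marked barcodes, 1 of 17 genes of antigen presentation was called, Cd40, which was lower, also at 10000 UMIs or more. Ifitm1, a membrane protein against virus entry, was at 36.4, 81.4 and 177 CPM against 2.39, 6.57 and 13.5, with a ratio of 2.97. At 10000 UMIs or more its ratio was 2.75. Iigp1 was at 180, 571 and 941 CPM against 119, 220 and 265, so its ranges overlapped. Rsad2 (viperin) was at 7.19, 14.6 and 36.2 CPM against 64.2, 88.4 and 108, a ratio of -2.05. The class I genes H2-K1 (ratio 0.43) and B2m (0.21) were near the other endothelial barcodes. Among complement genes, C4b and Cfb were called higher and C1qa and C1qb, which microglia make, lower.

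Venous genes were higher in the members and arterial genes lower than in other endothelial barcodes. Of 16 venous genes, 9 were called higher than in other endothelial barcodes and none lower, and 6 (Vwf, Nrp2, Vcam1, Il1r1, Ptgs1 and Aplnr) also than in vein-marked barcodes. Vwf, the platelet-binding protein of endothelial storage granules, was at 1402, 1758 and 2334 CPM against 285, 387 and 442 in other endothelial and 540, 671 and 822 in vein-marked barcodes, with ratios of 2.27 and 1.40, although it is among the genes that marked the veins. Nrp2, a semaphorin and VEGF-C co-receptor, was at 555, 731 and 955 CPM against 107, 166 and 205, with ratios of 2.26 and 1.38. Neither overlapped in any mouse. In contrast, 14 of 22 arterial genes were lower, among them Gkn3 (-4.34), Cdh13 (-4.39), Sema3g (-3.64), Alpl (-3.98) and the Notch target Hey1 (-2.55), and Clec14a was higher. Alpl was also lower than in vein-marked barcodes (-1.93), where Gkn3, Sema3g and Cdh13 were too low in both sets to be compared. Of the 14 arterial genes that could be compared with vein-marked barcodes, however, Eln, which codes for elastin (1.08), and Clec14a (1.17) were higher and the median ratio was 0.27. At 10000 UMIs or more, Efnb2 was higher as well, and the median over 13 genes was 0.58. Efnb2 is 1 of the 4 genes of the artery mark. The vein-marked barcodes lack that mark by definition, while 7.80% of the 1-library members carried it. Nothing is therefore read from arterial genes being higher than in vein-marked barcodes, or from the median of their list.

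Barrier genes were lower in part. Of 30 transporter genes, 8 were lower and the amino acid carrier Slc38a5, itself venous, was higher. Against vein-marked barcodes, 11 of 30 were lower and none higher, and 10 were lower at 10000 UMIs or more. Vein-marked barcodes could also carry the capillary mark, and Car4, a gene of that mark, had a mean of 631 CPM in them. Lower levels within veins alone are therefore not shown. Mfsd2a, which carries lysophosphatidylcholine into the brain and limits transcytosis, was at 4.78, 9.12 and 17.6 CPM in the members, 75.3, 99.0 and 128 in other endothelial and 59.5, 70.4 and 107 in vein-marked barcodes, with ratios of -2.96 and -2.56. Slco1c1, a thyroid hormone carrier, was at 268, 311 and 433 CPM against 1058, 1185 and 1373, and Car4, a carbonic anhydrase of capillaries, at 36.9, 78.9 and 223 against 391, 447 and 486. None of these overlapped.

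Other defining barrier genes were near their levels elsewhere. The glucose carrier Slc2a1 had a ratio of -0.24, the efflux pumps Abcb1a and Abcg2 of 0.08 and -0.07, and the tight junction gene Cldn5, used by the gate, of -0.62. Of 17 junction genes only Jup and Gja1 were lower, and Tjp1 had a ratio of 0.51. Of 26 genes of Wnt signaling and its barrier program, Reck, a co-receptor for Wnt7, Notum, a Wnt inhibitor, and Spock2 were lower, and 2 more, Nkd1 and Apcdd1, against vein-marked barcodes. Spock2 was at 401, 509 and 815 CPM against 1590, 1814 and 2127. Of 20 genes of caveolae and permeability, Plvap, Plpp1 and Plpp3 were lower than in other endothelial barcodes and none was called against vein-marked ones. Plvap, which forms the diaphragms of leaky capillaries, was at 0 to 58.7 CPM in the members and 49.2 to 127 in the others.

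Iron genes were called in both directions, without a pattern by role. Fth1, the heavy chain of the iron store ferritin, was at 3366, 4874 and 5705 CPM in the members, 1217, 1332 and 1681 in other endothelial and 1305, 1423 and 1906 in vein-marked barcodes, with ratios of 1.81 and 1.72 and without overlap. Ftl1, the light chain, had a ratio of 0.02. The uptake receptor Tfrc was called lower in both comparisons and the exporter Slc40a1 lower than in vein-marked barcodes. Bmp2, which induces hepcidin in the liver, was at 26.0, 35.0 and 69.9 CPM against 1.96, 5.37 and 6.63. Together with the gate gene Lcn2, Fth1 and Bmp2 were the genes called higher of 16 in this list.

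Of 14 coagulation genes, Vwf and Ptgs2 were higher, and Procr, the protein C receptor, was higher than in vein-marked barcodes (ratio 1.07). Plat (-0.11) and Thbd (0.44) were not called. Of 26 matrix genes, Hspg2, Timp3, Htra1 and Ctss were lower. Over all genes, 2.89% were called higher and 3.04% lower than in other endothelial barcodes. Htra1, a protease whose loss causes another inherited small vessel disease, was at 0, 1.11 and 5.12 CPM against 29.7, 38.4 and 51.7. Its ratio was -2.81, and -1.95 against vein-marked barcodes. At 10000 UMIs or more Htra1 was still lower than in other endothelial barcodes, but 0 of 22 matrix genes were called against vein-marked ones. Of 30 immediate early and dissociation genes, Egr1 and Zfp36 were called higher, and none at 10000 UMIs or more. Against vein-marked barcodes, Nr4a1 and Gadd45g were called higher, and Gadd45g also at 10000 UMIs or more. Fos was at 2595, 3211 and 4371 CPM against 1320, 1995 and 2470 (0.86) and Jun at 2796, 3778 and 4779 against 2412, 2943 and 3553 (0.42).

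Notch genes were called against other endothelial barcodes only, where 2.89% of all genes were higher and 3.04% lower. Of 17 tested, Notch4, Dll4, Jag2 and Hey1 were lower than in other endothelial barcodes and Lfng was higher, and 0 were called against vein-marked barcodes. Dll4, an arterial Notch ligand, was at 7.68, 10.1 and 14.3 CPM in the members, 51.3, 59.2 and 78.8 in other endothelial and 13.1, 20.6 and 31.1 in vein-marked barcodes. Notch1 was at 121 to 143 CPM in the members and 149 to 184 in the others, and Hes1 at 240 to 379 and 204 to 368. The human NOTCH3 transgene, which mural cells express, gave 6 UMIs in all 1-library members of the 8 mice (mean 0.294 CPM) and mouse Notch3 gave 11 UMIs (mean 1.04 CPM). In other endothelial barcodes these means were 1.41 and 3.42 CPM.

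Beyond the lists, the genes with the largest ratios outside the gate included Tll1, Pcdh7, Mctp1, Samd5 and Adgrg6. Tll1, a tolloid-like metalloprotease, was at 113, 218 and 297 CPM against 5.85, 15.9 and 20.3, a ratio of 3.52 (2.64 to 4.14) and of 2.64 against vein-marked barcodes. Pcdh7, a protocadherin, was at 165, 261 and 635 CPM against 18.4, 24.0 and 41.1, a ratio of 3.22. Mctp1, a membrane protein with C2 domains, was at 66.2, 150 and 299 CPM against 8.22, 12.1 and 19.8, with a ratio of 3.08 and of 3.26 against vein-marked barcodes. With barcodes of at least 10000 UMIs on both sides, the ratios against other endothelial barcodes were smaller. They were 3.01 for Tll1, 2.73 for Pcdh7, 2.88 for Mctp1, 2.31 for Samd5 and 2.12 for Adgrg6.

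Adgrg6, an adhesion G protein-coupled receptor, was at 334, 400 and 479 CPM against 18.0, 51.1 and 55.9. In vein-marked barcodes it was at 42.1, 107 and 127 CPM, so it stepped up from artery-marked (0.734 to 4.80) and capillary-marked barcodes (1.06 to 5.63) to veins and again to the members. Ldb2 took another course. It was at 106, 259 and 358 CPM in the members, 125, 205 and 300 in artery-marked and 13.7, 39.2 and 61.7 in vein-marked barcodes, so that its ratio was 2.52 against veins and 0.91 against all other endothelial barcodes. Sncaip (2.16) and Thsd7a (2.29) were likewise further above veins than above the other endothelial barcodes (1.33 and 1.62).

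The largest deficits were those of Ttr, Cdh13, Gkn3 and Alpl. Ttr, made by the choroid plexus, was at 9.45, 64.3 and 102 CPM in the members and 427, 1428 and 2943 in the other endothelial barcodes, a ratio of -4.78. With barcodes of at least 10000 UMIs on both sides it was -5.78. Hemoglobin genes were low as well (Hbb-bs at a median of 3.76 against 107 CPM), and the part of free RNA in both was not tested. Hmcn1, a matrix protein, was at 36.9, 78.6 and 150 CPM against 598, 697 and 999, and Lrrn3 at 2.05, 4.19 and 10.2 against 66.1, 86.3 and 104.

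The share of endothelial barcodes that were members was compared between genotypes, with the mouse as the unit. With all members it was 3.76% ± 2.57 (SD) over the 6 R182C-TgN3 mice and 1.96% ± 1.89 over the 5 WT-TgN3 mice. They differed by 1.80 percentage points (2-sided exact test over 462 arrangements of the mice, p = 0.225). The R182C-TgN3 mice 1 to 6 had 1.59%, 0.755%, 4.19%, 5.00%, 7.92% and 3.12%, and the WT-TgN3 mice 1 to 5 had 1.77%, 1.31%, 5.17%, 1.35% and 0.194%. The ranges overlapped, with R182C-TgN3 5 above every WT-TgN3 mouse and WT-TgN3 5 below every R182C-TgN3 mouse. The 3 highest values of R182C-TgN3 and the highest of WT-TgN3 belong to R182C-TgN3 5, 4 and 3 and WT-TgN3 3, and 154, 120, 1 and 115 of their members, in this order, were shared barcodes.

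With 1-library barcodes alone the share was 1.67% ± 1.34 (SD) over the 6 R182C-TgN3 mice and 1.15% ± 0.648 over the 5 WT-TgN3 mice, and the difference of 0.526 points was again within the spread (exact permutation test, p = 0.535). Single mice had 1.62%, 0.694%, 4.22%, 1.04%, 0.640% and 1.82% in R182C-TgN3 and 1.32%, 1.08%, 1.91%, 1.31% and 0.124% in WT-TgN3. R182C-TgN3 3, the mouse alone in batch 2, was highest, and without it the difference was 0.0165 points. Permuting within batches, which leaves out that mouse, gave 1.72 points with all members (exact p = 0.222) and 0.0165 with 1-library members (exact p = 0.972). Batch by batch, the difference was 0.400 points in batch 1, 4.92 in batch 3 and -2.05 in batch 4 with all members and 0.441, -0.357 and -0.0865 with 1-library members, and no batch could reach p under 0.333.

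By age, the difference between genotypes was 2.60 points at 6 months and 1.40 at 9 months with all members (exact permutation p = 0.3 and 0.5), and -0.267 and 1.46 with 1-library members (exact p = 0.5 and 0.4), where the smallest p that can be reached is 0.1. The difference between the ages in this effect was not past the threshold (-1.19 points, exact permutation p = 0.64, and 1.73 points, p = 0.295). After thinning of every barcode to 2000 UMIs, which left out shallower ones, the shares were 0.351% and 0.342% (exact p = 0.961). The shares are of barcodes that passed the gate, so fewer such cells and less RNA of the gate genes per cell cannot be told apart.

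**Figure D4:**
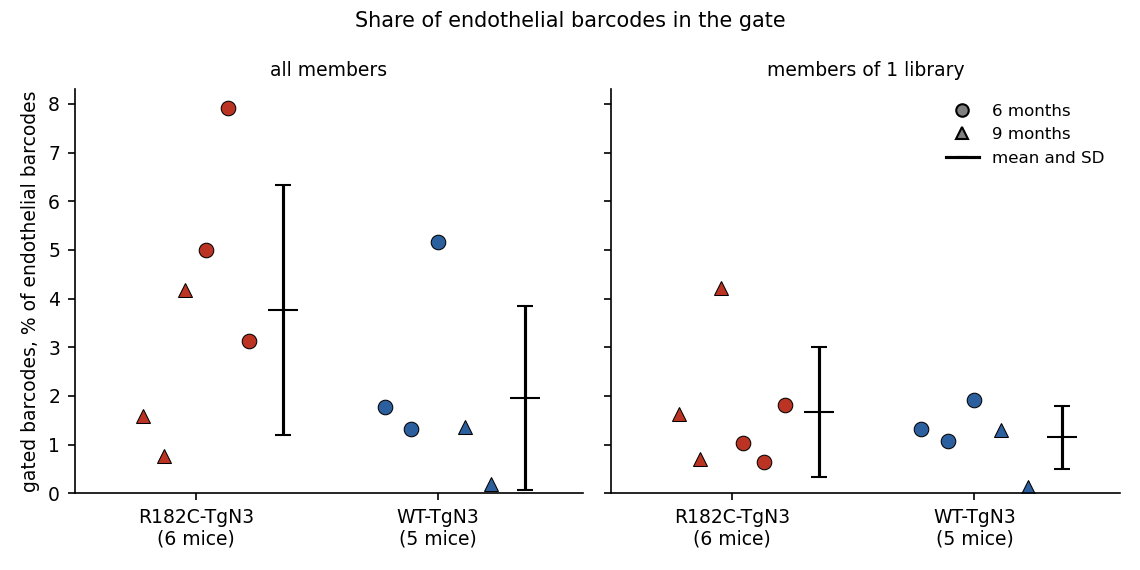
Percent of endothelial barcodes in the gate for each of the 11 mice by genotype (circles 6 months, triangles 9 months) with mean and SD, for all members and for 1-library members on separate panels. The genotypes overlap in both panels, and R182C-TgN3 5 drops from 7.92% to 0.640% when shared barcodes are left out.

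Between ages the difference in shares changed sign without the shared barcodes. With all members they were 1.62% ± 1.54 (SD, n = 5) at 9 months and 4.05% ± 2.48 (SD, n = 6) at 6 months, 9 months minus 6 months giving -2.43 points (exact permutation test, p = 0.0887). With 1-library members they were 1.59% ± 1.58 and 1.30% ± 0.488, a difference of 0.294 points (exact p = 0.775). With at least 1000 genes per barcode, which removes most shared barcodes without regard to sequence, the difference was -0.191 points (exact p = 0.812).

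Gene levels of the members were compared between genotypes on UMIs summed per mouse, for mice with at least 20 members, by quasi-likelihood in edgeR, with p-values adjusted after Benjamini and Hochberg. No gene of 8606 passed an adjusted p of 0.05 with all members (6 R182C-TgN3 and 4 WT-TgN3 mice), and 410 genes (4.76%) had an unadjusted p under 0.05. DESeq2 also called 0, with 272 (3.16%) under 0.05 unadjusted. With 1-library members (4 and 4 mice) edgeR called 0 of 8380, with 398 (4.75%) under 0.05 unadjusted, and DESeq2 called 0, with 260 (3.1%). Each library is 1 mouse, so these values measure the spread between mice.

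With 1-library members the lowest p-values were those of Efemp2 and Clu, and with all members those of Rbms3 and Clu. Efemp2 (fibulin-4), needed for elastic fibers, was at 28.9, 31.1, 26.5 and 38.2 CPM in R182C-TgN3 1, 3, 4 and 6 and at 13.5, 16.4, 14.4 and 16.0 CPM in WT-TgN3 1 to 4. All 4 R182C-TgN3 mice were above all 4 WT-TgN3 mice. The log2 difference was 1.09 ± 0.23 (SE) with an adjusted p of 0.651 by edgeR, and 0.95 ± 0.23 with an adjusted p of 0.486 with all members. In the same order, Clu (clusterin), a chaperone and complement inhibitor found mostly in artery-marked endothelium here (mean 222 CPM), was at 13.6, 18.3, 6.61 and 17.1 CPM in R182C-TgN3 and at 24.8, 24.7, 55.0 and 158 CPM in WT-TgN3 mice. The WT-TgN3 mice were again separate, and WT-TgN3 4, the only 9-month-old of these 4, was far above the rest.

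The log2 difference of Clu was -2.12 ± 0.45 (SE, edgeR adjusted p = 0.651) and, with all members, -1.94 ± 0.41 (adjusted p = 0.486). With batch as a covariate Clu passed with 1-library members (edgeR, log2 difference -2.54, adjusted p = 0.00259), but not with all members (-2.06, adjusted p = 0.662). Since R182C-TgN3 3 has a batch of its own, it adds nothing to that comparison. Other genes with low p were Xdh and Ism1, higher, and Rbms3 and Parp8, lower, in R182C-TgN3, with adjusted p of 0.486 each with all members.

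**Figure D5:**
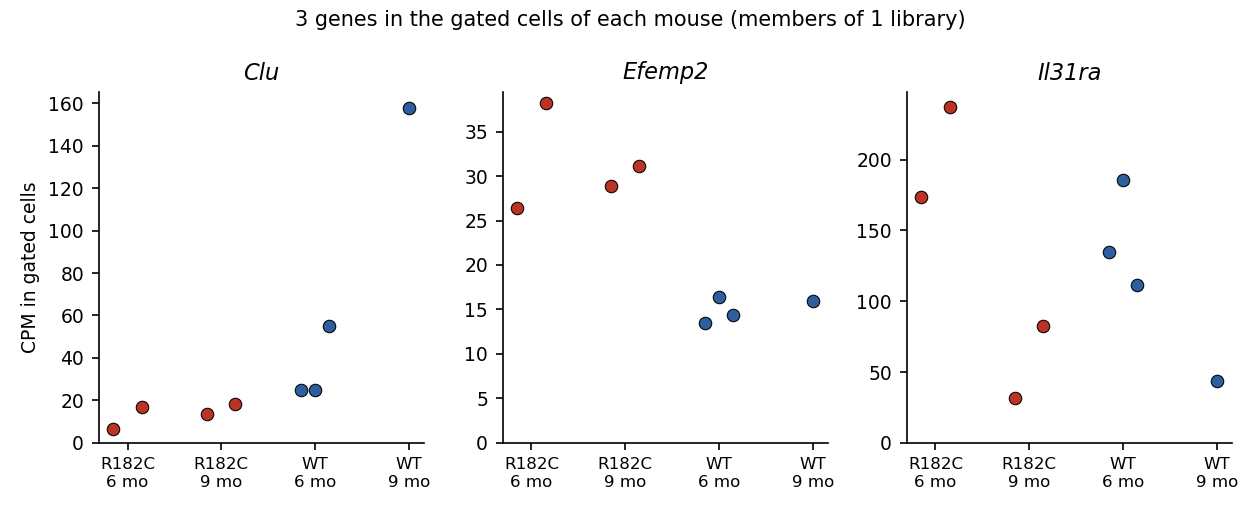
Level (CPM) of Clu, Efemp2 and Il31ra in 1-library members of 8 mice, by genotype and age. Clu and Efemp2 separate the genotypes in these mice (edgeR adjusted p = 0.651 each without a covariate for batch), and Il31ra is lower at 9 months (31.5 to 82.3 CPM) than at 6 months (111 to 238 CPM) in both genotypes.

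Lists of the profile were also counted in the genotype comparison, and no listed gene passed the adjusted test with low counts filtered and no covariate or block. Clu, a gene of the complement and arterial lists, passed with 1-library members with batch as a covariate and with the replicate block, and with all members when low counts were not filtered. With 1-library members, 16 of 17 genes of antigen presentation lay above 0 in R182C-TgN3 (median log2 difference 0.33), 26 of 29 interferon genes (0.25), 28 of 32 immediate early and dissociation genes (0.35) and 19 of 24 genes of STAT3 and the acute phase (0.13), while 50.3% of all genes lay above 0 and their median was 0.00. Of the 4 lists, in this order, 5, 5, 10 and 6 genes had an unadjusted p under 0.05, beside 4.75% of all genes. With all members the counts were 18 of 18, 27 of 31, 28 of 32 and 20 of 25. H2-Q7, a class I gene with near-identical neighbors, was at 375, 221, 253 and 225 CPM in R182C-TgN3 1, 3, 4 and 6 and at 169, 151, 205 and 157 in WT-TgN3 1 to 4 (log2 difference 0.71, edgeR adjusted p = 0.653). Adhesion molecules and venous genes lay above 0 in 10 of 17 and 5 of 17, with medians of 0.04 and -0.08, and of 17 Notch pathway genes 0 had an unadjusted p under 0.05. Dissociation genes were among the lists with most genes above 0, and their part in the other lists was not tested.

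Between ages, edgeR called 0 of 8606 genes with all members (516, or 6%, under 0.05 unadjusted) and 0 of 8685 with 1-library members (465, or 5.35%). With all members DESeq2 called 2 (0.0232%), Serpina3n and Il31ra, with 4.26% of genes under 0.05 unadjusted. With 1-library members it called 5 (0.0576%), Hspa8, Il31ra, Hspa1b, Hspa1a and Gstp1, with 3.02% under 0.05 unadjusted. Il31ra, a receptor subunit for IL-31, was at 31.5, 82.3 and 43.9 CPM in R182C-TgN3 1 and 3 and WT-TgN3 4, all 9 months old, and at 174, 238, 135, 186 and 111 CPM in R182C-TgN3 4 and 6 and WT-TgN3 1, 2 and 3, all 6 months old. The ages did not overlap. The log2 difference was -1.81 ± 0.28 (SE, edgeR adjusted p = 0.0595, DESeq2 adjusted p = 4.49e-06), and with all members -1.61 ± 0.27 (edgeR adjusted p = 0.0734). The other endothelial barcodes had 44.5, 128 and 50.1 CPM of Il31ra in the same 9-month-old mice and 125 to 346 CPM at 6 months, so the difference was found outside the members as well.

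Gstp1, a glutathione transferase with close paralogs, was at 2.10, 6.22 and 4.99 CPM at 9 months and 13.2 to 36.9 CPM at 6 months (log2 difference -2.44, edgeR adjusted p = 0.0619). Serpina3n, Lcn2 and Cd14 were low at 9 months where shared barcodes were counted. With all members, their log2 differences were -6.42 (edgeR adjusted p = 0.0734), -2.98 (0.205) and -2.62 (0.205). With 1-library members Lcn2 had a difference of 0.51 (adjusted p = 0.987) and Cd14 of -0.15 (adjusted p = 0.994), and Serpina3n was at 0 to 3.59 CPM in all 8 mice.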

How the data were processed

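Per the labels, RNA of CD31-captured brain microvessel cells was made into 10x Genomics 3′ libraries. Reads were processed by the authors with Cell Ranger 7.0.0 against mm10 with human NOTCH3 added, and raw UMI counts per gene and called barcode were deposited without normalization. Libraries held 17550806 to 64215050 UMIs. The gate, lists and named genes were chosen with earlier results of these data known.

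UMIs were summed per mouse over members, and CPM were computed from these sums. Mice needed at least 20 members, which left out WT-TgN3 5, and with 1-library members also R182C-TgN3 2 and 5. Ratios within mice used a pseudocount of 5 CPM, genes with a mean of at least 20 CPM and a 2-fold limit. Genotype and age (with genotype as a covariate) were tested with edgeR 4.0.16 (quasi-likelihood, filterByExpr, TMM) in R 4.3.3, without ribosomal, mitochondrial, Gm and Rik genes as in the study, with adjusted p-values by Benjamini-Hochberg and a threshold of 0.05. DESeq2 1.42.0 was an alternative. Shares were compared by 2-sided exact permutation over mice. Doublets were scored against simulated doublets per library (0.8% per 1000 barcodes) and kept. Named genes were the gate genes, up to 6 of each list by level and 4 by ratio, the 15 largest rises and 10 largest falls of each profile, and the 5 lowest p-values per direction. Summaries and plots were made in Python 3.11.15 (pandas 2.3.3, numpy 2.4.6, matplotlib 3.10.9, scipy 1.17.1). Scripts were tested on simulated data. Gene positions are from GENCODE vM21. A count of 0 was given a limit of 3 counts, which covers counting error only. A gene in few copies is missed in most barcodes at these depths. The proteins were not analysed here. Some genes of the lists are not reported here.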

Additional observations from a re-analysis of the deposited data

Results flagged for a closer look

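Values of single mice that stood apart from the others of their genotype were sought among groups of 4 to 6 mice, and 18 of 100 were found. Chance flags about 1 in 20 groups where these are independent and not chosen by their values. Here the genes were the gate genes and those of lowest p by genotype or age, and the same mice recurred. The number flagged is therefore not read against that rate. In the share of 1-library members, R182C-TgN3 3 had 4.221% and the next R182C-TgN3 mouse 1.819%. With all members, R182C-TgN3 5 stood apart for Lcn2 (5099.6 CPM, next 1934.6), Lrg1 (867.86, next 419.9), Cd14 (470.2, next 179.58) and Serpina3n (285.12, next 77.689), and WT-TgN3 3 for Lcn2 (2078.3 CPM, next 391.72) and Cd14 (172.85, next 39.612). In these 2 mice, 154 of 166 and 115 of 176 members were shared barcodes.

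With 1-library members, WT-TgN3 3 remained apart for Lcn2 (854.3 CPM, next 146.92) and was the only WT-TgN3 mouse of the 4 compared with Serpina3n above 0 (3.5895 CPM). WT-TgN3 4, the only 9-month-old of the 4 WT-TgN3 mice compared, stood apart for Rbms3 (44.856 CPM with all members and 44.928 with 1-library members, next 71.596 and 73.971), Rnaset2b (38.875 and 38.938, next 13.204 and 13.161), Tob1 (189.39 with all members, next 99.211) and Gstp1 (4.9921 with 1-library members, next 13.161). Single values were also apart for Efemp2 in WT-TgN3 1 (13.204 CPM with all members, next 15.934), Pigg in R182C-TgN3 4 (9.9198 with 1-library members, next 7.3185) and Tgfb2 in WT-TgN3 2 (53.424 with 1-library members, next 39.484).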

How the results depend on the processing

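Alternatives that leave out shared barcodes, or set 10000 UMIs, were chosen after seeing the data. The difference in share by genotype was -0.118 points when thinned to 4000 UMIs, and with 1-library members -0.00173 and -0.0594 when thinned to 2000 and 4000. Leaving out 1 mouse gave 0.972 to 2.60 points, and with 1-library members 0.0165 (without R182C-TgN3 3) to 0.733. The share by age passed the threshold where Ackr1, Sele or Selp was required (-2.45 points, exact permutation p = 0.0498), was 0.294 with 1-library members, and was -0.185 with these thinned to 4000. Leaving out 1 mouse gave -3.07 to -1.66 points, past the threshold without R182C-TgN3 3 (exact p = 0.0429) and without WT-TgN3 2 (exact p = 0.0476), and with 1-library members -0.364 (without R182C-TgN3 3) to 0.661.

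By genotype, edgeR called 19 genes without a filter on low counts, and with 1-library members 1 (Clu) with batch as a covariate and 1 (Clu) with the replicate block. Leaving out 1 mouse gave 0 to 0 with either set. Mice of like age and label number were different animals and are not said by the labels to share a litter. Their deviations correlated with r of -0.12 to 0.085, which shows no pairing by number but, over so few pairs, cannot exclude it. The replicate block, which drops unpaired mice, R182C-TgN3 3 among them, gave shares differing by 1.72 points (exact permutation p = 0.3125) and, with 1-library members, 0.0165 (p = 0.9375), and 0 genes with all members. By age, edgeR called 1 gene with at least 1000 genes per barcode, 201 without the filter and 4 with all genes kept, DESeq2 2, and with 1-library members edgeR 1 with at least 10 members per mouse and DESeq2 5. Leaving out 1 mouse gave 0 to 12 and, with 1-library members, 0 to 13, both highest without R182C-TgN3 3. Other counts above 0 were 2 without R182C-TgN3 5, 4 without R182C-TgN3 6, 1 without WT-TgN3 2 and 2 without WT-TgN3 3, and with 1-library members 4 without R182C-TgN3 1, 1 without R182C-TgN3 6, 3 without WT-TgN3 2 and 1 without WT-TgN3 3.

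In the profile against other endothelial barcodes, 130 genes were higher at 10000 UMIs or more and 117 lower at a mean of at least 50 CPM, and against vein-marked barcodes this mean gave 99 higher and 57 lower. Leaving out 1 mouse gave 200 to 213 higher and 197 to 214 lower, with 1-library members 209 to 222 and 211 to 225. Against vein-marked barcodes it gave 148 to 158 and 82 to 98, with 1-library members 150 to 167 and 93 to 109.

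Among single genes the age difference of Lcn2 changed sign with 1-library members (0.511, or 0.294 with at least 10 members, 0.359 with sex as a covariate and 0.0342 to 1.62 with 1 mouse left out: 0.400, 0.127, 0.0342, 0.431, 0.434, 1.01 and 1.62), that of Cd14 with these and 1 mouse left out (0.0610 and 0.172), and that of Sdc4 without WT-TgN3 4 (-0.319 to 0.691 with 1 mouse left out). In all, 274 of the values for whole comparisons and 14272 of those for single genes were rated as unchanged. Tests were rated so when direction and side of the threshold were kept. Counts of genes had to stay near the main count, and profile ratios within the SD over mice. Of the rest, 23 and 194 moved further, 6 and 13 changed sign, and 3 and 45 passed the threshold where the main setting did not. The cause of the changes was not tested. Few members in WT-TgN3 5 and R182C-TgN3 2 limit precision, as does the absence of any batch with both ages.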
